A study of Mus musculus with 27 samples.

Results

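The very long-range contacts of one captured stretch of mouse chromosome 4, chr4:107110001-107960000 (mm10), were followed along the rest of that chromosome in testis. This stretch, called the core, is made of 85 bins of 10 kb, and 82 of them were used because the 3 bins of chr4:107710001-107740000 lie in the interval deleted in the mutant mice. Its partners were all bins of chromosome 4 outside the captured region chr4:102820001-110380000, merged to 500 kb. They number 299, and 292 of them had a contact with the core, of 5217 bins of that size in the genome that had one and lay outside both captured regions. Of the 299, 206 lie towards the start of the chromosome (the left side) and 93 towards its end (the right side). Their centres are 4.88 to 107 Mb from the centre of the core on the left, with usable sequence up to 104 Mb, and 2.9 to 48.6 Mb on the right. They hold 1230 protein-coding genes.

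Chromosomes fold at several scales, and the frequency with which a pair of loci is ligated in a Hi-C experiment falls steeply with their distance along the DNA. At very long range this decay is modulated by compartments: active, gene-rich chromatin tends to meet other active chromatin, and inactive, gene-poor chromatin other inactive chromatin. Boundaries between topologically associating domains (TADs) act at much shorter range, and contacts across most of a chromosome are mainly shaped by the decay and by compartments. Mouse chromosome 4 has its centromere at the start, so the left side runs towards the centromere and the right side towards the telomere.

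The series holds 27 samples of mouse testis, of which the 6 capture Hi-C libraries were used. One group, wild type, has 3 libraries. The other, homozygous, has 3 libraries from mice in which CRISPR-Cas9 removed a TAD boundary on both copies of the chromosome. The line name B396.BOS stands in the names of the contact data of both groups. Each library came from frozen whole testis, digested, filled in with biotin, ligated and enriched for chosen regions with probes, so all cell types of the testis are mixed in it. Age, strain and whether animals were pooled were not given in the sources used here, and no cell type can be checked in contact counts. Nothing beyond the replicate numbers says that libraries of one group came from separate animals, so p-values measure the spread between these libraries.

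The libraries held 5669898 to 7794641 contacts each. The core accounted for 1195218, 1820926 and 1486303 contacts in libraries 1, 2 and 3 of the wild type, and for 1112917, 2002719 and 1506815 in the homozygous ones. The libraries numbered 2 were thus the deepest of each genotype for the core, and they also stood apart in several values given further on. Of the core's contacts in wild type, 62.5% ± 1.27 (SD, n = 3) stayed within the captured region, 18.8% ± 0.683 went to the rest of chromosome 4 and 18.7% ± 0.793 to other chromosomes. The long-range contacts came to 221596 to 385183 per library. The 289 bins with at least 20 of their 50 small bins usable had medians of 397 to 702 contacts per library. At the very start of the chromosome 6 bins had no usable sequence. Elsewhere 4 more had too little, namely the bins starting at 42000001, 42500001 and 60500001 and the one at 110000001 that is partly inside the captured region.

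Contacts of the core were highest beside the captured region and fell with distance on both sides, and their mean at both ends of the chromosome stayed above the level of other chromosomes. Levels are given as contacts per usable 10 kb bin per 1000000 contacts of the core. In wild type, the left side gave 72.6 ± 3.51 (SD, n = 3) at 5 to 10 Mb, 16.4 ± 1.22 at 10 to 20 Mb and 7.77 ± 0.457 at 20 to 30 Mb. Past that the decline was not smooth: the level was 4.78 ± 0.284 at 30 to 50 Mb, rose to 5.86 ± 0.176 at 50 to 70 Mb, and was 2.47 ± 0.152 at 70 to 105 Mb. The 50 to 70 Mb class lay above the 30 to 50 Mb class in each of the 6 libraries, and it held 186 genes against 103, each in 40 bins. On the right side the levels were 60.0 ± 2.82 at 5 to 10 Mb, 22.5 ± 0.830 at 10 to 20 Mb, 10.0 ± 0.453 at 20 to 30 Mb and 6.98 ± 0.427 at 30 to 50 Mb. No rise was seen between these classes, but the last one was not even. Its bins beyond 40 Mb stood at 7.36, 7.95 and 7.10 in the wild-type libraries, against 6.86, 7.46 and 6.63 for the whole class. In the homozygous libraries they stood at 8.66, 10.1 and 7.78, against 8.02, 9.33 and 7.28. On the left, 50% of the long-range contacts were reached within 12.3 to 13.3 Mb of the core, depending on the library, and 90% within 66.8 to 67.8 Mb. On the shorter right side these distances were 9.21 to 10.2 Mb and 33.2 to 35.7 Mb.

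**Figure D1:**
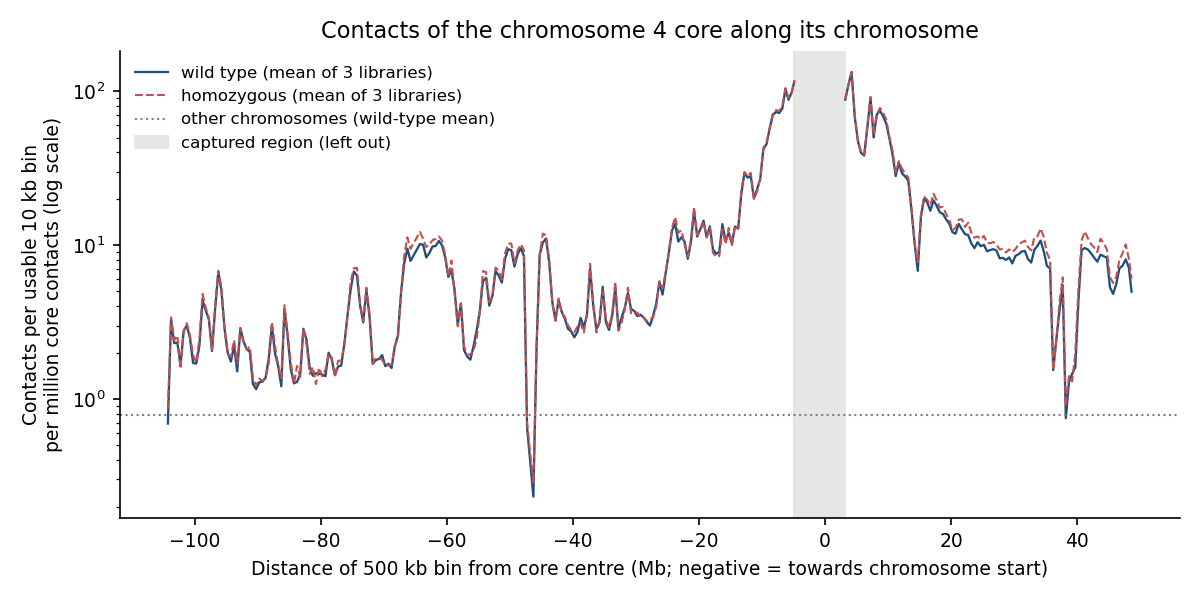
Contacts of the core with each 500 kb bin (y axis, contacts per usable 10 kb bin per 1000000 core contacts, log scale) against distance from the core's centre in Mb (x axis, negative towards the chromosome start), as means of 3 wild-type (solid) and 3 homozygous (dashed) libraries, with the wild-type level of other chromosomes dotted. Both genotypes follow the same humps and dips, and the left side rises again between 50 and 70 Mb.

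The farthest bins still met the core more often than bins of other chromosomes did. The other chromosomes averaged 0.795, 0.749 and 0.813 contacts per usable bin per 1000000 in the wild-type libraries, against 0.852, 0.778 and 0.808 in the homozygous ones. The left side beyond 85 Mb stood at 2.56, 2.29 and 2.51 in wild type, against at 2.68, 2.45 and 2.53 in homozygotes. The ratio of the left end to the other chromosomes was 3.12 ± 0.0832 (SD, n = 3) in wild type and 3.14 ± 0.0065 in homozygotes, and the 6 libraries ranged narrowly, from 3.06 to 3.22. The right side beyond 40 Mb was 9.54 ± 0.973 times the level of other chromosomes in wild type and 10.9 ± 1.82 times in homozygotes. The visibility of a bin is its contacts with other chromosomes away from both captured regions. It stands in for how readily a bin is ligated and sequenced, and whether it also carries real preferences between chromosomes was not tested. Once each bin's contacts were divided by its visibility, the wild-type ratios were 3.39 ± 0.0904 on the left and 5.79 ± 0.591 on the right. Both ends were above the other chromosomes in 6 of 6 libraries (two-sided exact sign-flip permutation test, p = 0.031, the smallest it can give with 6). The limits of 85 and 40 Mb were chosen after the values were seen, so this p-value adds no support beyond the ratios themselves. Single bins could lie lower: in each library 2 to 4 of the 289 were below the mean of other chromosomes, and the farthest left bin with usable sequence had 0.693 ± 0.124 (SD, n = 3) in wild type.

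The decay was summarised as the slope of contacts on log distance, with visibility as an offset. On the left the exponents of the wild-type libraries were -1.26, -1.26 and -1.24, and those of the homozygous libraries -1.24, -1.20 and -1.26. On the right they were -1.47, -1.36 and -1.46 in wild type, against -1.40, -1.27 and -1.43 in homozygotes. With the offset the right side was the steeper one in each library, and library 2 was the shallowest of its genotype on that side. Without the offset the order turned, with wild-type means of -1.35 on the left and -1.18 on the right and homozygous means of -1.33 and -1.12. At distances held by both sides, the left had more contacts per unit of visibility than the right, by 0.87, 0.72 and 0.88 on the log2 scale in the wild-type libraries, against by 0.79, 0.64 and 0.83 in the homozygous ones. This side ratio rests on the correction: without the visibility offset the wild-type mean was -0.05 and the homozygous mean -0.12, so the sides were nearly even in plain counts.

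Around the fitted decay the core had preferred and avoided stretches along the chromosome, and these recurred in each library. For each bin the log2 ratio of observed contacts to those expected from distance and visibility was taken. Its SD over the 289 bins was 0.51 in wild type, against a median SD over the 3 wild-type libraries of 0.08. Neighbouring bins resembled each other (Pearson's r = 0.724 between a bin and the next one), and the profiles of any pair of libraries correlated with r of 0.917 to 0.972 over the 15 pairs. These correlations are descriptions over bins that share a chromosome, a distance fit and a visibility track. The ratio was above 0 in 108 bins and below 0 in 155 bins in all 3 wild-type libraries.

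Preferred stretches were picked after the values were seen, as at least 4 neighbouring bins past 0.3 in wild type, and 7 were found. They cover 40 bins with 6.62 genes per bin, against 4.17 over all 289. The longest, chr4:43000001-48500000, holds 84 genes in 11 bins, among them Pax5, the transcription factor of B lymphocyte identity, and Gabbr2, a subunit of the GABA-B receptor. Its log2 observed over expected was 0.72, 0.84 and 0.66 in the wild-type libraries, against 0.78, 0.88 and 0.76 in the homozygous ones. The genotypes overlapped in this stretch. Close to it, chr4:40000001-42000000 with Dnaic1, a dynein chain of cilia and sperm tails, and Aco1, the cytosolic aconitase, gave 0.56, 0.66 and 0.52 in wild type, against 0.69, 0.71 and 0.66 in homozygotes. There the homozygous libraries all lay above the wild-type ones (exact permutation test, p = 0.1, the smallest for 3 against 3), 1 such stretch of 16, with no adjustment for having looked at 16. Others on the left were chr4:32000001-34000000 (0.65 ± 0.05, SD, n = 3), with Bach2, a transcriptional repressor in lymphocytes, and chr4:56000001-60000000 (0.57 ± 0.05), with Svep1 and Ptpn3. On the right the preferred stretches were chr4:113500001-116000000 (0.58 ± 0.02), with Skint genes and Stil, a centriole duplication gene, chr4:148000001-150000000 (0.57 ± 0.03), with Mtor and Casz1, and chr4:150500001-152500000 (0.61 ± 0.06), with Camta1 and Per3, a circadian clock gene. Without the visibility offset these right stretches came to 0.24, 0.50 and 0.44, and the left ones lay between 0.92 and 1.47.

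Avoided stretches numbered 9 and cover 64 bins with 3.05 genes per bin. The deepest long one, chr4:72500001-82500000, has 20 bins and 22 genes, led in length by Ptprd, a receptor tyrosine phosphatase of synapses, which spans 2270506 bases. Its log2 observed over expected was -0.74, -0.84 and -0.72 in the wild-type libraries, against -0.83, -0.82 and -0.75 in the homozygous ones. Another gene-poor stretch, chr4:65500001-70000000, holds 4 genes in 9 bins, Astn2, Brinp1, Trim32 and Tlr4 (the receptor for bacterial lipopolysaccharide). It stood at -0.62 ± 0.09 (SD, n = 3). Not all avoided stretches were gene-poor. On the right, chr4:132000001-136500000 holds 104 genes in 9 bins, among them Arid1a, a subunit of the SWI/SNF chromatin remodeller, and stood at -0.57 ± 0.01. The stretch chr4:129000001-131000000, with 46 genes in 4 bins, was at -0.56 ± 0.05. Without the visibility offset these gene-rich stretches came to -0.29 and -0.22, nearer to the expectation. The stretch chr4:145500001-147500000, a cluster of zinc finger genes around Rex2, was lowest of all at -1.06 ± 0.26.

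**Figure D2:**
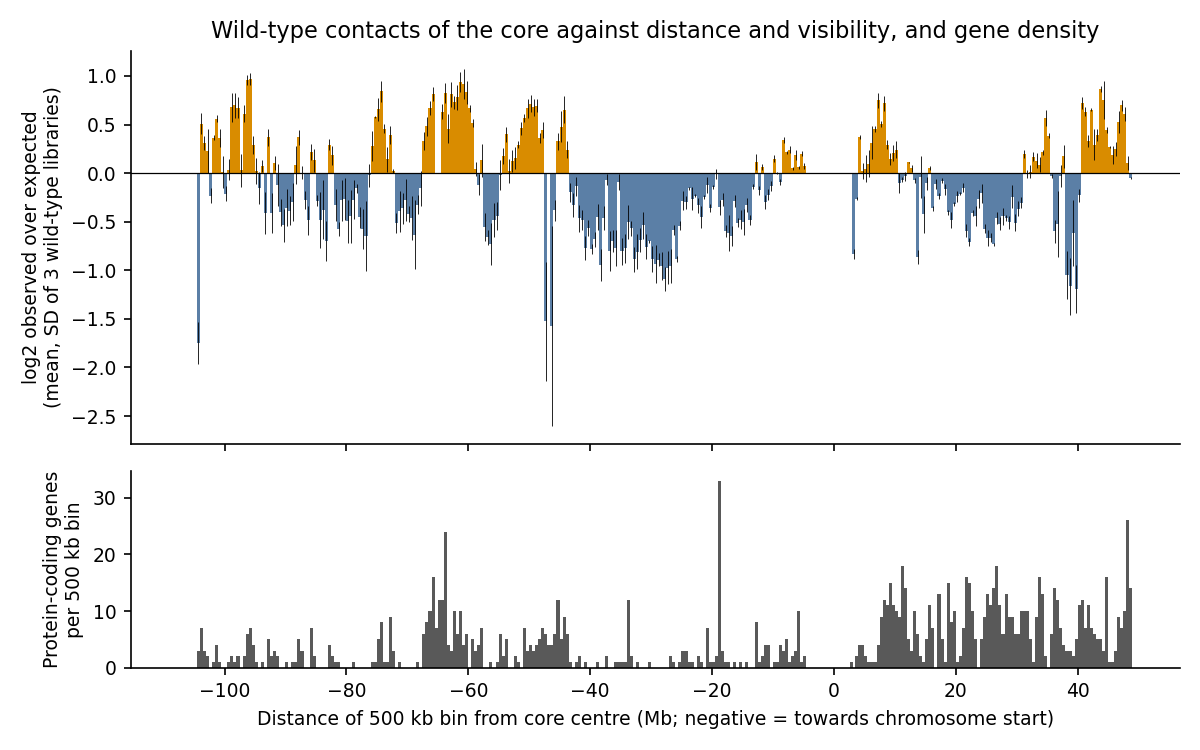
Top, log2 observed over expected contacts of the core for each 500 kb bin in wild type (bars, mean; lines, SD of 3 libraries) against distance in Mb from the core's centre, negative towards the chromosome start; bottom, protein-coding genes per bin. On the left the raised bars between 59 and 65 Mb stand over gene-dense bins. The long trough near 25 to 35 Mb stands over a gene-poor stretch (22 genes in 20 bins).

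Single bins at the extremes show the same picture. The highest wild-type ratio belonged to chr4:11500001-12000000, some 95.8 Mb from the core, which was met 300, 454 and 381 times in wild type, against 309, 495 and 397 times in homozygotes. It holds 7 genes, including Rad54b, a recombination repair gene, and its ratio was 0.97 ± 0.06 (SD, n = 3). The next bin towards the centromere, with Ccne2 (cyclin E2) and Esrp1, an epithelial splicing regulator, stood at 0.96 ± 0.05. Both values fell to 0.57 and 0.55 when the decay was allowed to curve on the log scale. The bins chr4:46000001-46500000, with the DNA repair gene Xpa and the thyroid transcription factor Foxe1, and chr4:46500001-47000000, with Gabbr2, stood at 0.93 ± 0.10 and 0.92 ± 0.16. They kept 0.85 and 0.84 with the curved decay. At the other extreme was the bin at the start of the assembled chromosome, chr4:3000001-3500000, with the pheromone receptor genes Vmn1r2 and Vmn1r3. It was met 34, 46 and 53 times in wild type, against 42, 75 and 56 times in homozygotes, with 43 of 50 small bins usable and a ratio of -1.75 ± 0.21. The bins at 60000001 and 61000001 stood at -1.52 and -1.57, but had only 36 and 22 usable small bins and were left out of this ranking. Among bins with at least 40 usable small bins, chr4:147000001-147500000 came next (-1.20 ± 0.25). Then came 4 adjoining bins of chr4:79000001-81000000 between -0.95 and -1.09. Of these, 3 hold no gene and the last holds Tyrp1, a melanin synthesis enzyme, and Lurap1l. The sign of all 12 of these extreme bins was the same under each alternative tried for them (no visibility offset, visibility from all contacts, curved decay), but their order and size were not. With visibility from all contacts the bin at 3000001 came to -0.61 and that at 147000001 to -0.49, and the gene-free bin at 79500001 was then lowest at -1.21. Without the offset the bin at 147000001 was at -2.11 and the Ccne2 bin at 1.91.

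The bins beside the captured region set the scale of the profile. The nearest whole bin on the left, chr4:102000001-102500000, holds part of Pde4b, a cyclic AMP phosphodiesterase, and was met 6230, 8403 and 7439 times in wild type, against 5634, 9055 and 7667 times in homozygotes. The nearest on the right, chr4:110500001-111000000, holds no gene and was met 5584, 7182 and 6837 times in wild type, against 5252, 7898 and 6976 times in homozygotes. Relative to expectation the first was raised (0.20 ± 0.03, SD, n = 3) and the second lowered (-0.83 ± 0.05). The last whole bin on the right, chr4:155500001-156000000, with 26 genes, was met 395, 704 and 525 times in wild type, against 485, 870 and 537 times in homozygotes and lay close to expectation (0.10 ± 0.08).

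Genes of listed families fell on both sides of the expectation. For comparison, the median over all 289 bins was -0.13 and 122 of them had a wild-type mean above 0. The Cyp4 cluster, fatty acid hydroxylases, 10 genes in 2 bins, was raised (0.63 ± 0.04, SD, n = 3). Its lower bin, which also holds Stil, was at 0.50 and came to 0.08 without the visibility offset. The Skint family, linked to the selection of skin T cells, 11 genes in 6 bins, stood at 0.24 ± 0.05, with 6 of 6 bins above 0. Interferon genes (19 in 3 bins) were at -0.35 ± 0.03, with 1 of 3 bins above 0, while olfactory receptor genes (24 in 4 bins) were at 0.19 ± 0.02, with 2 of 4 above 0. The Pramel family (24 in 5 bins), expressed in the germ line, was at -0.02 ± 0.01 when summed, but its median bin was at -0.35 and 1 of 5 was above 0. The Zfp zinc finger genes (27 in 16 bins) were at -0.11 ± 0.00317, with 5 of 16 bins above 0. The major urinary protein genes (Mup, 22 in 6 bins) are near-identical copies, and only 213 of their 300 small bins were usable. Their summed 0.20 ± 0.02 is uncertain, since of 5 fitted bins 2 were above 0, the median was -0.38 and the lowest -1.57.

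Long genes of gene-poor stretches were mostly in avoided bins. Over the 7 bins that hold their midpoints, Ptprd was at -0.70 ± 0.02 (SD, n = 3), Nfib, a nuclear factor I gene, at -0.54 ± 0.05, Astn2, a gene of neuronal migration, at -0.47 ± 0.14, Brinp1 at -0.45 ± 0.13 and Lingo2 at -0.39 ± 0.21. Tox and Nfia, from the same list, were above the expectation, at 0.36 ± 0.10 and 0.15 ± 0.04. The sign for Tox rests on the straight decay: its bin, 101 Mb from the core, came to -0.08 with the curved decay. Of 13 developmental and tumour genes on the list, 12 lay in the long-range bins. Pax5 was highest at 0.81 ± 0.13 and Dmrta1, next to the tumour suppressor Cdkn2a, lowest at -0.60 ± 0.06. Cdkn2a itself was at -0.27 ± 0.07, and Tal1 and Stil, which share a bin, were at 0.50 ± 0.03 (0.08 without the visibility offset). Of 19 testis and germ cell genes, 13 lay in long-range bins, each in its own bin, and 8 of the 13 bins were above 0. Spag8 (0.83 ± 0.10), Dnaic1 (0.82 ± 0.07), Tdrd7, a tudor protein of germ granules (0.78 ± 0.13), and Tesk1, a testis kinase (0.63 ± 0.07), sit within 5 Mb of each other on the left. Tssk3, a sperm-specific kinase (-0.59 ± 0.07), Lypla2 (-0.46 ± 0.03) and Tekt2, a sperm tail tektin (-0.40 ± 0.02), lie on the right. Without the visibility offset Tssk3, Lypla2 and Tekt2 came to -0.14, -0.32 and -0.07, and the left bins just named lay between 1.40 and 1.72. The other right-hand members were not low: Prdm16, a histone methyltransferase gene, was at 0.52 ± 0.11, Spata6 at 0.37 ± 0.02, Ccdc30 at -0.03 ± 0.05 and Dnali1, a dynein light chain, at -0.08 ± 0.02. Without the offset these were at 0.30, 0.46, 0.24 and 0.01. The bin of Spata6, needed for the neck of the sperm tail, is only 4.21 Mb from the core's centre and had 133 ± 7.08 contacts per usable small bin per 1000000.

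Gene density and contacts went together on the left side and, after correction for visibility, not on the right. On the left, bins without a protein-coding gene stood at -0.40, -0.49 and -0.37 in the wild-type libraries, against at -0.43, -0.49 and -0.42 in the homozygous ones, over 66 bins. Left bins with 6 to 10 genes stood at 0.26, 0.32 and 0.27 in wild type, against at 0.30, 0.34 and 0.29 in homozygotes, over 24 bins. The classes between rose in order, -0.05 ± 0.01 (SD, n = 3) for 1 to 2 genes and 0.16 ± 0.02 for 3 to 5. Above 10 genes the level was 0.26 ± 0.04 over 6 bins, no higher than for 6 to 10. On the right only 4 bins had no gene (-0.66 ± 0.03). The other right classes were at 0.01 ± 0.05, 0.25 ± 0.01, -0.06 ± 0.01 and 0.03 ± 0.02 from few genes to many, with no order. Across bins, Spearman's rho between gene number and the wild-type ratio was 0.612 over 197 left bins and -0.110 over 92 right bins. Visibility itself rose with gene number (rho 0.686 over 289 bins), so dividing by it can also remove a link between contacts and genes. Without the offset rho was 0.629 on the left and 0.313 on the right. These points share libraries, neighbours and the distance fit.

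**Figure D3:**
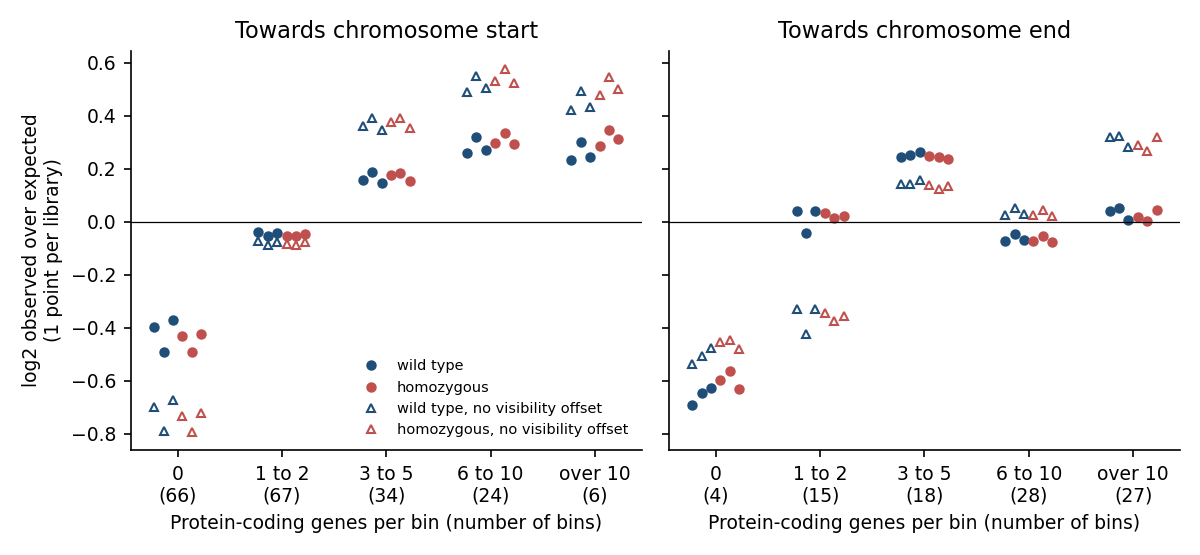
Log2 observed over expected contacts (y axis) by protein-coding genes per 500 kb bin (x axis, with the number of bins), 1 point per library, towards the chromosome start (left panel) and end (right panel); circles are with and triangles without the visibility offset. On the left the classes climb from bins without genes to those with 6 to 10 genes, and on the right the circles follow no order, while the triangles run from -0.51 without genes to 0.31 above 10 genes, with the 6 to 10 class below the 3 to 5 class.

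As 1 value per library, bins with 5 or more genes (102) were set against bins with at most 1 (127). The log2 ratio of their summed observed over expected contacts was 0.26, 0.32 and 0.24 in the wild-type libraries, against 0.27, 0.30 and 0.28 in the homozygous ones. All 6 libraries were above 0 and the genotypes overlapped. By side, the gene-richest bins of each were set against its gene-poorest, so the cuts differed. On the left, 83 bins with 2 or more genes against 66 without any gave a wild-type value of 0.58 ± 0.08 (SD, n = 3). On the right, 35 bins with 10 or more genes against 37 with at most 5 gave 0.02 ± 0.04. Without the visibility offset the left value came to 1.06 ± 0.08 and the right value to 0.44 ± 0.04. These values do not compare the sides at the same gene numbers.

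A second captured stretch in the same libraries, chr2:115200001-117080000, has no deletion and served for comparison. It holds 3 protein-coding genes in 188 bins (Meis2, a homeobox gene, BC052040 and Tmco5), whereas the chromosome 4 core holds 15 in 85 bins, among them Dmrtb1, a regulator of germ cell entry into meiosis, Ndc1, Cpt2 and Lrp8. Along its own chromosome the chromosome 2 core favoured gene-poor bins. Its contrast was -0.42, -0.31 and -0.41 in wild type, against -0.44, -0.42 and -0.42 in homozygotes. The contrast of the chromosome 4 core was higher by 0.68 ± 0.04 (SD, n = 6) and was higher in 6 of 6 libraries (two-sided exact sign-flip permutation test, p = 0.031, Benjamini-Hochberg adjusted over 2 comparisons 0.031). That difference in contrast was 0.65 ± 0.02 (SD, n = 3) in wild type and 0.71 ± 0.01 in homozygotes, without overlap (exact permutation test, p = 0.1, the smallest possible). Most of this shift lay in the chromosome 2 core, at -0.38 ± 0.06 and -0.43 ± 0.01, without overlap (exact permutation test, p = 0.1). The contrast of the chromosome 4 core was 0.27 ± 0.04 and 0.28 ± 0.01, which overlapped (exact permutation test, p = 0.8). The cores lie on different chromosomes, so gene content of the core and the chromosome cannot be told apart. On the bins of chromosome 4 itself, the contacts of the chromosome 2 core per unit of visibility ran against the profile of the chromosome 4 core on the left (Spearman's rho -0.597 over 197 bins) and weakly with it on the right (0.259 over 92 bins), a description over bins that share libraries and the same visibility.

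Between 5 and 45 Mb the decay exponent of the chromosome 4 core was -1.56 on average over the 6 libraries and that of the chromosome 2 core -1.40. The difference was -0.16 ± 0.01 (SD, n = 6), lower in 6 of 6 libraries (exact sign-flip permutation test, p = 0.031, adjusted 0.031). It turned to 0.06 without the visibility offset and to 0.04 without the bins within 5 Mb of the captured regions, so no order of the decays holds across these settings.

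The parts of the core on either side of the deleted bins had different side ratios. The left part lies nearer to the left bins, yet both parts were given distances from the centre of the whole core. The left part (60 bins) gave side ratios of 0.99, 0.83 and 0.99 in the wild-type libraries, against 0.88, 0.73 and 0.93 in the homozygous ones. The right part (22 bins) gave 0.57, 0.44 and 0.61 in wild type, against 0.53, 0.39 and 0.56 in homozygotes. With the offset each part leaned towards the left side, the left part more so. Without it the wild-type means were 0.06 ± 0.09 for the left part and -0.34 ± 0.09 for the right part (SD, n = 3), so the direction of the lean rests on the offset. The offset is the same for both parts, so it cannot change their order. The difference was 0.42, 0.39 and 0.38 in wild type, against 0.35, 0.34 and 0.37 in homozygotes, above 0 in 6 of 6 libraries (exact sign-flip permutation test, p = 0.031). Decay from these unlike positions gives this sign by itself, so the test cannot tell whether the parts differ beyond their position. The genotypes did not overlap: the parts differed by 0.39 ± 0.02 (SD, n = 3) in wild type and by 0.35 ± 0.01 in homozygotes (exact permutation test, p = 0.1, the smallest possible; adjusted over 7 values 0.467). The gap came mostly from near bins. Beyond 20 Mb the difference between the parts was 0.17 ± 0.03 in wild type and 0.15 ± 0.03 in homozygotes, and the genotypes overlapped. In the gene density contrast described before, the left part minus the right part was -0.03 ± 0.01 in wild type and -0.01 ± 0.03 in homozygotes.

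Between genotypes, the share of the core's chromosome 4 contacts that went beyond the captured region was 24.1%, 22.2% and 23.0% in the wild-type libraries, against 25.0%, 23.6% and 24.3% in the homozygous ones. The groups overlapped, and the means of 23.1% ± 0.967 (SD, n = 3) and 24.3% ± 0.689 did not differ past the test (two-sided exact permutation test, p = 0.2, adjusted over 7 values 0.467). Without the bins within 5 Mb of the captured region the shares were 13.8% and 14.8% and no longer overlapped (exact permutation test, p = 0.1). The chromosome 2 core, without a deletion, also had a higher share in homozygotes: 44.4% ± 0.734 in wild type and 45.7% ± 0.495 in homozygotes, without overlap (exact permutation test, p = 0.1). Of all the core's contacts, 18.8% ± 0.683 in wild type and 19.6% ± 0.343 in homozygotes were long-range (p = 0.2, adjusted 0.467, exact permutation test). Nor did the exponents, the side ratio or the gene density contrast pass (exact permutation tests, p = 0.5 on the left, 0.4 on the right, 0.5 and 0.8). With 3 libraries against 3 no such test can fall below 0.1.

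**Figure D4:**
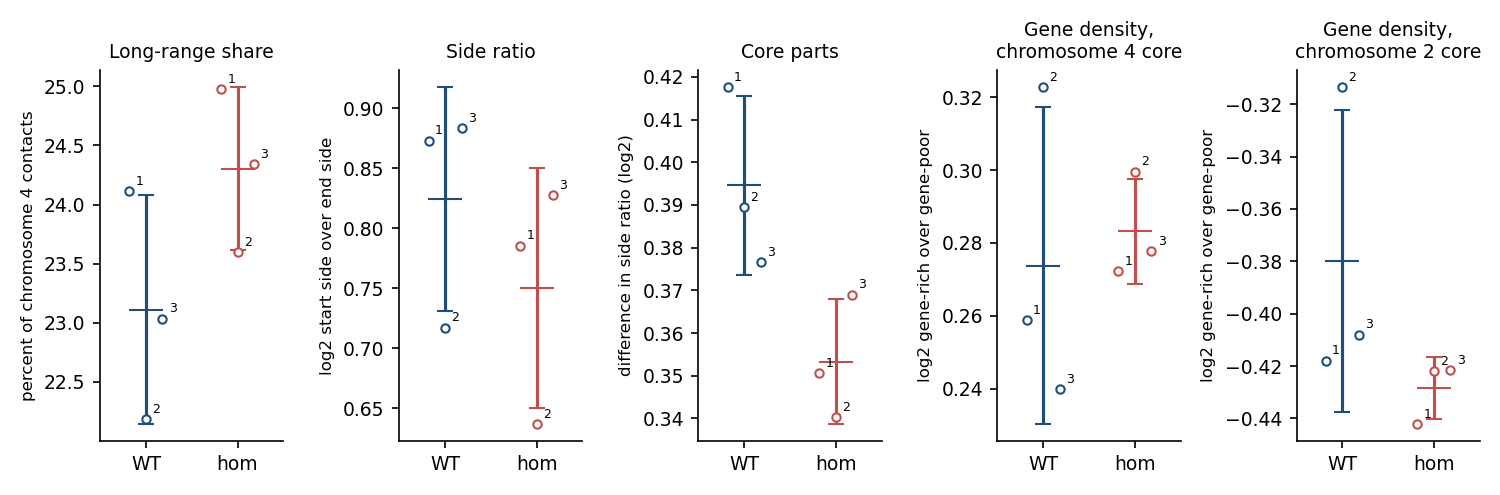
One point per library (labelled 1 to 3) with mean and SD for wild type and homozygotes: long-range share of the core's chromosome 4 contacts in percent, log2 side ratio, log2 difference in side ratio between the parts of the core, and log2 gene density contrast of the chromosome 4 and chromosome 2 cores. The genotypes overlap for the share, the side ratio and the chromosome 4 contrast, and the 2 cores have contrasts of opposite sign.

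In the test across the genome no single bin passed between the genotypes. In edgeR's quasi-likelihood test over 5052 bins of the genome, 0 of the 292 tested bins of chromosome 4 passed an adjusted p of 0.05, as did 0 of all bins (0%). At an unadjusted p under 0.05 there were 16 of 292 on chromosome 4 and 212 of 5052 in all, and DESeq2 also called 0, with 3 of 292 at an unadjusted p under 0.05. The mean profiles of the genotypes correlated with Pearson's r of 0.987 over 289 bins that share the visibility track.

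The bins with the smallest p in the higher direction all lay at the right end. The first, chr4:148500001-149000000, holds Mtor, the kinase of growth control, and Casz1, a zinc finger transcription factor. It was met 572, 956 and 643 times in wild type, against 673, 1391 and 817 times in homozygotes. As contacts per usable bin per 1000000 core contacts this was 9.57, 10.5 and 8.65 against 12.1, 13.9 and 10.8, without overlap. The log2 difference was 0.32 (SE 0.11), with an adjusted p of 0.998 in edgeR. The next were chr4:151000001-151500000 with Per3 and Camta1 (0.30, SE 0.11) and chr4:155000001-155500000 with Ski and Prkcz (0.28, SE 0.12), whose libraries overlapped. Without the homozygous library 2 these 3 differences fell to 0.17, 0.10 and 0.08, and without the wild-type library 2 they rose to 0.44, 0.44 and 0.41. Without the wild-type library 3 they were 0.22, 0.22 and 0.18. In the lower direction were chr4:52000001-52500000 with Smc2, a condensin subunit (-0.20, SE 0.12), chr4:26500001-27000000 without genes (-0.23, SE 0.14) and chr4:91000001-91500000 with Elavl2, an RNA-binding protein of neurons (-0.15, SE 0.10). Without the homozygous library 1 the Smc2 difference was -0.13, and leaving out the wild-type library 1 gave -0.12 for the bin without genes and -0.09 for the Elavl2 bin. All 6 missed the threshold in this fit (edgeR adjusted p = 0.998). An edgeR fit on chromosome 4 alone with the replicate number as a block, added after seeing the data, called the bins of Mtor, Per3 and Ski (adjusted p = 0.0125, 0.0385 and 0.0385) and another at 142000001 (adjusted p = 0.0455), while the block in the genome-wide fit called 0.

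**Figure D5:**
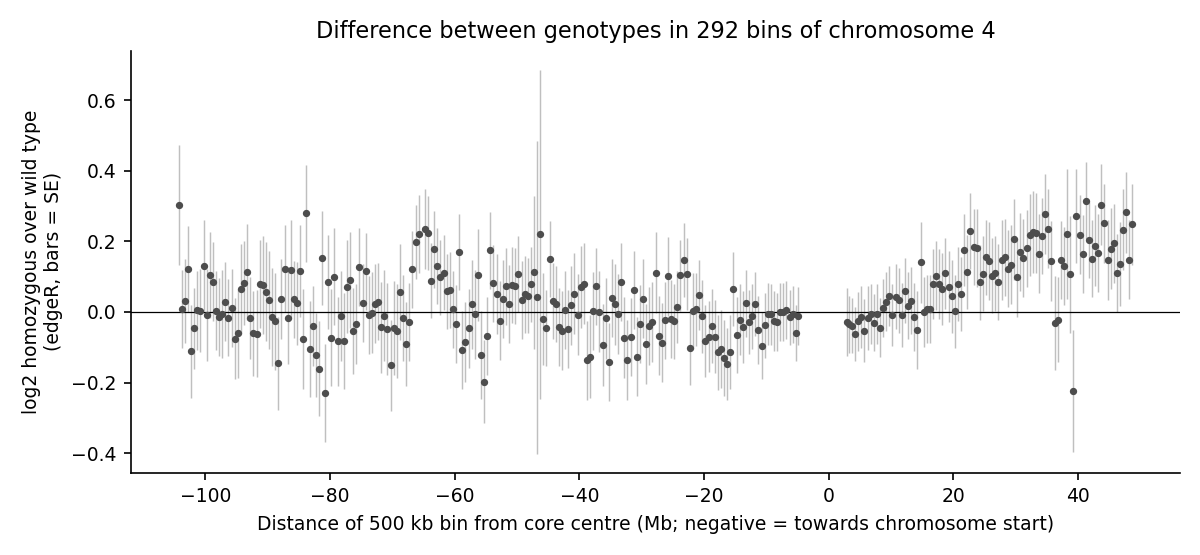
Log2 homozygous over wild-type contacts of the core (y axis, edgeR estimate, bars SE) for 292 bins against distance in Mb from the core's centre (x axis, negative towards the chromosome start). No bin passed the genome-wide test. Of the 58 bins more than 20 Mb to the right, a limit chosen after the values were seen, 55 lie above 0, as do 172 of all 292. The sign depends on the scaling: the median of the 292 was 0.025 in this fit and -0.014 in a fit on chromosome 4 bins only.

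Small differences of one sign lined up along parts of the chromosome, chosen here after the values were seen. All homozygous libraries exceeded all wild-type ones in 44 of 292 bins (15.1%), and below them in 1 (0.342%), when counts were divided by the core's contacts. Over all 5052 bins of the genome these shares were 6.97% and 1.96%, and on other chromosomes 6.47% and 2.06%. The excess depended on the scaling: divided by the core's long-range contacts, 12 bins of chromosome 4 were above and 6 below. Of the 44 bins under the first scaling, 25 were on the right, 14 of 55 tested within 30 Mb and 11 of 38 beyond. At 50 to 70 Mb on the left there were 11 of 39, against 3 of 51, 2 of 40 and 3 of 69 in the other left classes. The 44 bins held a median of 8 genes against 2 in the other tested bins. Beyond 20 Mb on the right, 58 bins with 472 genes took 2.21%, 2.39% and 2.16% of the core's contacts in wild type, against 2.53%, 2.89% and 2.36% in homozygotes. The groups overlapped there (2.25% ± 0.121 against 2.59% ± 0.270, SD, n = 3; exact permutation test, p = 0.2), and library 2 was highest in each genotype. At chr4:40000001-48500000 the shares were 0.665%, 0.656% and 0.624% in wild type, against 0.725%, 0.755% and 0.688% in homozygotes, without overlap (exact permutation test, p = 0.1). As shares of the long-range contacts the same stretch gave 3.40%, 3.60% and 3.36%, against 3.64%, 3.92% and 3.50%, which overlapped (exact permutation test, p = 0.2). Without the libraries numbered 2, of all core contacts, the means of wild type and homozygotes were 2.18% and 2.45% on the right end, and 0.645% and 0.707% on that left stretch.

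Readouts of the same right-hand bins that do not involve the chromosome 4 core overlapped between the genotypes. Of the visibility contacts of the long-range bins, the right end beyond 20 Mb held 27.7%, 31.3% and 28.2% in wild type, against 28.0%, 30.0% and 28.2% in homozygotes. Of the chromosome 2 core's contacts with these bins it held 12.9%, 15.8% and 14.5% in wild type, against 13.9%, 14.8% and 13.7% in homozygotes (exact permutation test, p = 0.9 for each). Library 2 was high in both genotypes in these readouts as well. It was also highest in the core's contacts with gene-rich bins of other chromosomes: the log2 ratio of contacts in bins with 5 or more genes to those with at most 1 was 0.68, 0.83 and 0.61 in wild type, against 0.68, 0.87 and 0.74 in homozygotes. The part of these library differences in the small excess of the homozygotes was not tested.

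By distance, the homozygous libraries lay above the wild-type ones without overlap in 3 of 12 classes. At 50 to 70 Mb on the left the level was 6.06, 5.76 and 5.75 contacts per usable bin per 1000000 in wild type, against 6.42, 6.51 and 6.10 in homozygotes. At 10 to 20 Mb on the right the means were 22.5 ± 0.830 and 23.8 ± 0.587 (SD, n = 3), and at 20 to 30 Mb on the right 10.0 ± 0.453 and 11.3 ± 0.850. Each had an exact permutation p of 0.1, and the lowest value adjusted over the 12 classes was 0.4. As shares of the long-range contacts 0 of the 12 classes were without overlap, and these 3 had exact permutation p of 0.2, 0.5 and 0.4.

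RNA-seq offers one more readout of the long-range bins, from other samples, of wild-type, heterozygous and homozygous testis. In the authors' deposited table of expression regressed on genotype for genes not near the deletion, 566 genes are listed and 525 matched RefSeq. Of those, 36 (6.86%) lie in the long-range part of chromosome 4, against 5.45% of all 49555 annotated genes. The regression p-values of the 36 run from 4.22e-05 to 0.00998, so genes with larger p appear to be missing from the list. The annotated genes were not limited to those tested in the regression. Shares of listed and of annotated genes here therefore compare unlike sets. Of the 36, 35 have a positive slope in the authors' deposited table, as have 538 of all 566, and their lowest FDR is 0.564, so none passes 0.05. Counted by gene, the bins of the 36 hold a median of 10.5 protein-coding genes, against 7 for all annotated long-range genes, and their median wild-type log2 observed over expected was 0.10, against 0.01. The genes with the smallest p in the authors' deposited table are Gm13001, Kcnab2 (a potassium channel subunit), Slc35e2, Klhl17 and Zcchc17. The contacts of their bins differed between genotypes by 0.21, 0.15, 0.15, 0.25 and 0.23 on the log2 scale (edgeR adjusted p = 0.998 for each). Of the 36 genes, 33 (91.7%) were in bins with an estimate above 0, as were 1900 of 2676 annotated long-range genes in tested bins (71.0%). Genes that share a bin share its estimate, and no test was made of these shares.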

How the data were processed

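Members, lists and tests were chosen with earlier results of these data known. For each capture Hi-C library the authors deposited a contact count for pairs of 10 kb bins, without normalization; the genome build is mm10, per the submitters' processing notes, and the alignment and filtering of reads are not given in the sources used here. For RNA-seq the authors deposited a regression table with a slope, its test statistic (a score), and a p-value adjusted as FDR.

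From the counts, contacts of the core were summed over 500 kb bins. Protein-coding genes came from RefSeq (GRCm38.p6, the same assembly as mm10) and were counted in 1 bin each, by midpoint. A small bin was usable if it had any visibility contact over the 6 libraries, and a 500 kb bin was fitted with at least 20 usable bins. The expected contacts came from a Poisson regression per library and side (statsmodels 0.14.6, Python 3.11.15, numpy 2.4.6) on log distance with log visibility as an offset. Bins were tested with edgeR 4.0.16 in R 4.3.3 (TMM, quasi-likelihood test, mean count of at least 5, Benjamini-Hochberg over the genome, threshold 0.05), and with DESeq2 1.42.0 as an alternative. Single values per library were compared by two-sided exact permutation, 3 against 3, adjusted over 7. Both procedures were tested on simulated data. The smallest count in a tested bin was 3, and counting error limits the farthest bins most.

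Named bins were, in each direction, the 3 with the smallest p (none passed), the 6 with the highest and 6 with the lowest wild-type ratio among bins with at least 40 usable small bins, the nearest and last bins, and bins of listed genes. Stretches, distance classes, the limits of 85, 40 and 20 Mb, and the counts without overlap were chosen after the values were seen. ChIP-seq was not analysed here. Alternatives were other bin sizes, filters, normalizations, offsets and libraries left out.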

Additional observations from a re-analysis of the deposited data

How the results depend on the processing

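The differences between genotypes in long-range share, side ratio, both exponents and the difference between the core's parts kept their sign under each alternative tried, and none passed its test. Some alternatives could not change them. The choice of offset cancels in the genotype difference of the side ratio and of the parts. Pairing the libraries by number leaves the mean difference of each of these values as it was. The gene density contrast differed by 0.01 between genotypes and turned to -0.0075 without the wild-type library 3. It ranged from -0.0075 to 0.034 as libraries were left out. The decay against the chromosome 2 core turned to 0.057 without the visibility offset and to 0.044 without the near bins. Leaving out 1 library kept it between -0.164 and -0.157 and the contrast against the chromosome 2 core between 0.67 and 0.69. Without both libraries numbered 2 these were -0.17 and 0.68 (exact sign-flip permutation p = 0.125 each). With 5 or 4 libraries the test cannot reach 0.05, so those losses follow from fewer libraries. The contrast against the chromosome 2 core was 1.24 without the near bins and 0.89 without the offset. The side ratio of the core's right part turned from 0.54 to -0.34 without the offset in wild type. The difference between the core's parts gives no value with the deleted bins kept, since they belong to neither.

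The count of bins that differed was 0 under each setting that was planned, with 2 to 42 of 292 at an unadjusted p under 0.05 as libraries were left out. A pairing of the libraries by number was not established: same-numbered deviations correlated with 0.15, 0.50 and -0.05, and 2 of 6 libraries correlated best with their own number. With the replicate block edgeR called 0, with 38 at an unadjusted p under 0.05. Chromosome 4 alone with the replicate block, added after seeing the data, called 4, all higher in homozygotes and all on the right beyond 30 Mb. There the bins of Mtor, Per3 and Ski stood at 0.27, 0.26 and 0.24 (edgeR adjusted p = 0.0125, 0.0385 and 0.0385). As same-numbered pairs the share of chromosome 4 contacts rose by 0.860, 1.41 and 1.31 percentage points under the replicate block (exact sign-flip permutation, p = 0.25, the smallest for 3).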
